A study of Mus musculus with 5 samples.

Results

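Described here are 283 nuclei, labelled as thick limb and distal tubule, that carried transcripts of injury genes in mouse kidneys after ischaemia-reperfusion injury (IRI). They were chosen by counts of unique molecular identifiers (UMIs), each standing for 1 captured RNA molecule. A barcode with at least 200 detected genes entered if it held at least 2 UMIs summed over Lcn2, Clu, Sytl2, Cdh3 and Samd5, and at least 1 UMI over Slc12a1, Umod, Egf and Slc12a3. It also had to hold 0 UMIs of Havcr1 and Vcam1, which mark injured proximal tubule. The 283 nuclei came from 9513 barcodes of the 3 IRI libraries, and from 16359 barcodes in the whole series. They numbered 171 of 3012 at 64 h, 60 of 3202 at 96 h and 52 of 3299 at 28 d. They are called injury-gene nuclei below. Proximal tubule markers had at least as many UMIs as thick limb and distal markers in 31, 16 and 25 of them at these times. The label was in doubt for those. The comparison nuclei came from the same library, held at least 2 Slc12a1 UMIs and had 0 UMIs over the 5 injury genes. They numbered 177 at 64 h, 93 at 96 h and 215 at 28 d.

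The study sequenced single kidney nuclei in 5 droplet libraries, 1 for each group, so no group had a replicate. GFP-positive nuclei were sorted 64 h, 96 h or 28 d after both renal pedicles were clamped, and GFP-positive and GFP-negative nuclei were sorted without injury. All animals were male Six2-TGC; Rosa26rtTA; pTRE-H2BeGFP mice, 10 to 12 weeks old when operated, with doxycycline in the food at 625 mg per kg from soon after birth. Six2 drives the transgene in nephron progenitors, so the green histone is meant to mark nephron epithelium and not the collecting duct. Without injury 1588 of 3338 GFP-negative and 1504 of 3508 GFP-positive nuclei held a UMI of Slc12a1, Umod, Egf or Slc12a3. At least 2 Slc12a1 UMIs and 0 injury gene UMIs were found in 370 and 356 of them. The GFP-positive libraries thus need not hold all thick limb and distal nuclei, and the cause was not tested. In mg/dL, the labels give a serum creatinine of 0.122 for both libraries without injury, then 0.375 (64 h), 0.312 (96 h) and 0.144 (28 d). Blood urea nitrogen is listed as 26.1 mg/dL without injury, then 37.0 (64 h), 91.8 (96 h) and 31.7 (28 d). Creatinine was thus highest at 64 h and urea nitrogen at 96 h. Ketamine at 105 mg per kg, xylazine at 10 mg per kg and 1 ml of saline are listed for every sample. The number of mice behind a library and the clamp time were not given in the sources used here, and the samples without injury are called uninjured in one place and sham in another.

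The thick ascending limb reabsorbs sodium chloride through NKCC2, the product of Slc12a1, and secretes uromodulin, the product of Umod. The distal convoluted tubule follows it and takes up salt through NCC, the product of Slc12a3, under control of the WNK kinases. Both segments make Egf, and the thick limb is known to release lipocalin 2, the product of Lcn2, after kidney injury. Clu encodes clusterin, a secreted chaperone that also rises in injured tubule. Cdh3 encodes P-cadherin, Sytl2 a Rab27 effector in vesicle transport and Samd5 a sterile alpha motif protein.

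Injury-gene nuclei had a median of 1129 UMIs at 64 h, 479.5 at 96 h and 1351.5 at 28 d. Comparison nuclei had a median of 1005 UMIs at 64 h, 424 at 96 h and 815 at 28 d. Summed over nuclei, the injury-gene sets held 233028, 35138 and 83315 UMIs at 64 h, 96 h and 28 d, and the comparison sets held 205236, 46104 and 237791. The 96 h library was the shallowest, so that a gene with 0 UMIs in its injury-gene set could still reach 85.4 CPM, the level of 3 counts, where CPM are UMIs per 1e+06 UMIs of the set. No barcode of an injury-gene nucleus recurred in another library, and pairs of libraries shared at most 20 barcodes. Doublets were not called, since the rule itself takes nuclei with transcripts of more than 1 kind. Each interval given is at 95% and covers counting error alone. No p-value is given, because 1 library per group leaves no spread between animals to test against.

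The share of nuclei that met the rule was highest at 64 h, also when taken among nuclei with a UMI of Slc12a1, Umod, Egf or Slc12a3. Among these segment nuclei, 73 of 1588 met it in the GFP-negative library without injury, which is 4.6% (exact Clopper-Pearson interval 3.62% to 5.75%). In the GFP-positive library without injury 63 of 1504 did, or 4.19% (3.23% to 5.33%). At 64 h the share was 17.3% (15% to 19.8%, 171 of 989), at 96 h 12.8% (9.88% to 16.1%, 60 of 470) and at 28 d 5.4% (4.06% to 7.02%, 52 of 963). The intervals at 64 h and 96 h lay above those of both libraries without injury. The interval at 28 d overlapped them both. In segment nuclei with no UMI of the injury genes, Havcr1 or Vcam1, proximal tubule markers often matched or exceeded thick limb and distal markers. This held for 939 of 1254 such nuclei in the GFP-positive and 550 of 1238 in the GFP-negative library without injury. After injury it held for 334 of 558 at 64 h, 150 of 308 at 96 h and 539 of 738 at 28 d. The effect on the shares was not tested. Over all nuclei of a library the shares were 2.19% (1.72% to 2.74%) in the GFP-negative and 1.80% (1.38% to 2.29%) in the GFP-positive library without injury. On that basis 5.68% (4.88% to 6.56%) met the rule at 64 h, and 1.87% (1.43% to 2.41%) at 96 h. The 28 d share was 1.58% (1.18% to 2.06%). Over all nuclei the 64 h interval alone lay above both libraries without injury, and those at 96 h and 28 d overlapped both.

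Depth differed between libraries, and a deeper nucleus reaches 2 UMIs more easily. With each nucleus thinned to 500 UMIs, the shares were 1.01% and 1.07% in the GFP-negative and GFP-positive libraries without injury. The 64 h share became 8.83% (6.74% to 11.3%), the 96 h share 8.14% (4.52% to 13.3%) and the 28 d share 2.2% (1.18% to 3.74%). Thinning left out 60 of 3012 nuclei at 64 h, 1557 of 3202 at 96 h and 281 of 3299 at 28 d. It left out 511 of 3338 GFP-negative and 0 of 3508 GFP-positive nuclei without injury. Among segment nuclei the order of the times stayed the same, and the intervals at 64 h and 96 h overlapped. Over all nuclei at 500 UMIs the share was 0.389% (0.194% to 0.695%) and 0.257% (0.117% to 0.486%) in the GFP-negative and GFP-positive libraries without injury. It was 1.90% (1.44% to 2.46%) after 64 h, 0.851% (0.466% to 1.42%) after 96 h and 0.431% (0.23% to 0.735%) after 28 d, and the 96 h interval again overlapped both without injury.

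**Figure D1:**
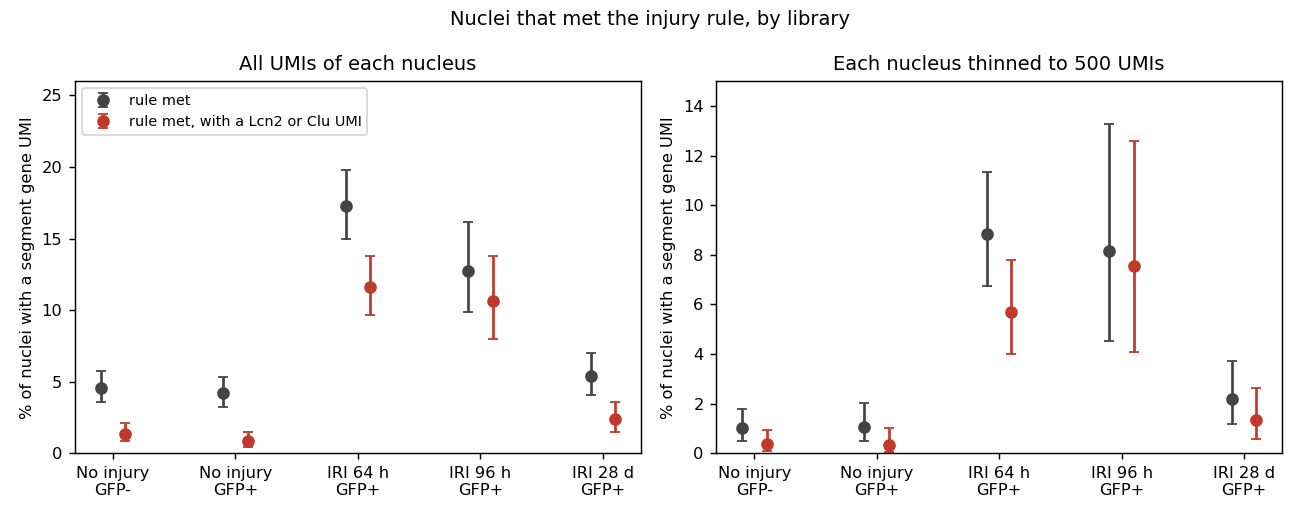
Share of nuclei that met the rule among nuclei with a UMI of a segment gene (y axis, percent) in each library (x axis), at full depth on the left and at 500 UMIs per nucleus on the right. Points are shares and bars are exact Clopper-Pearson intervals for counting error, with the rule alone in grey and with a Lcn2 or Clu UMI also required in red. At full depth the share was 17.3% at 64 h and 4.19% in the GFP-positive library without injury.

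The injury genes that brought nuclei in were not the same in every library. These counts describe how the nuclei were selected on the 5 genes and are no finding about them. Lcn2 had a UMI in 0 of 63 nuclei that met the rule in the GFP-positive library without injury, in 35 of 171 at 64 h, in 18 of 60 at 96 h and in 4 of 52 at 28 d. Clu had one in 13 of 63 without injury, in 103 of 171 at 64 h, in 43 of 60 at 96 h and in 20 of 52 at 28 d. Sytl2 had one in 45 of 63 without injury, in 116 of 171 at 64 h, in 28 of 60 at 96 h and in 46 of 52 at 28 d. Lcn2 and Clu were thus found in larger shares of these nuclei at 64 h and 96 h than without injury, while Sytl2 alone brought in 36.5% of the nuclei at 28 d and the same 36.5% in the GFP-positive library without injury. Cdh3 had a UMI in 61 of 171, 9 of 60 and 15 of 52 nuclei at 64 h, 96 h and 28 d, and Samd5 in 28 of 171, 8 of 60 and 7 of 52.

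The number of injury genes in a nucleus is also a value the rule selected on and is given as a description. Most injury-gene nuclei held more than 1 of the 5 genes. At least 2 were detected in 70.8% of them at 64 h, 66.7% at 96 h and 59.6% at 28 d. In the GFP-positive library without injury 42.9% of the nuclei that met the rule held at least 2. Single nuclei held up to 11 injury gene UMIs at 64 h, 7 at 96 h and 9 at 28 d, against 5 without injury. With a Lcn2 or Clu UMI required as well, 115 nuclei remained at 64 h, 50 at 96 h and 23 at 28 d, and 13 in the GFP-positive library without injury.

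**Figure D2:**
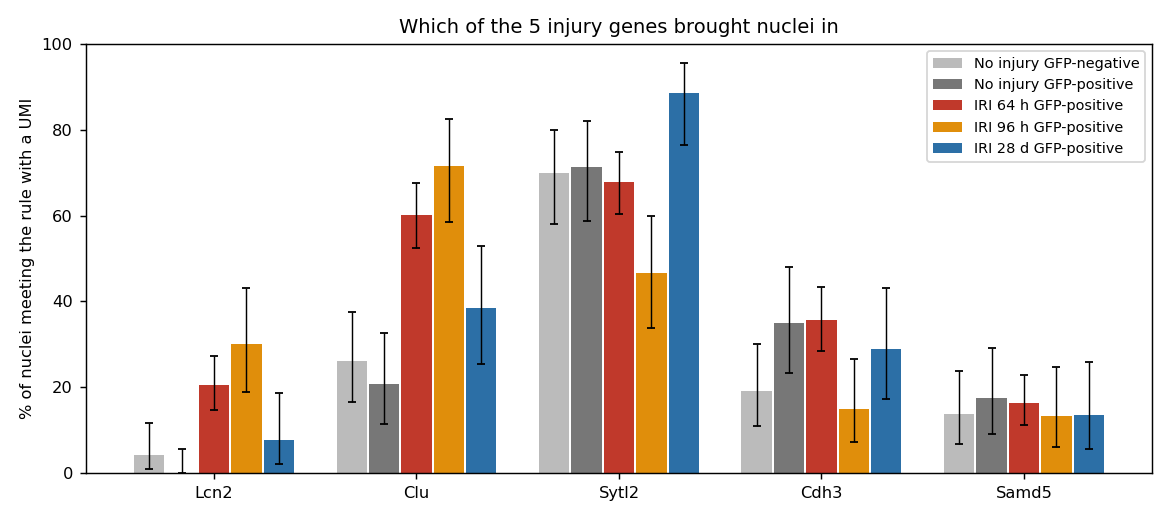
Share of the nuclei that met the rule in which each of the 5 injury genes had a UMI (y axis, percent), by gene (x axis) and library (colours). Bars start at 0 and whiskers are exact Clopper-Pearson intervals for counting error. Lcn2 was found in 35 of 171 nuclei at 64 h and in 0 of 63 in the GFP-positive library without injury, whereas Sytl2 was frequent in each library.

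At 64 h 70 nuclei that met the rule held exactly 2 injury gene UMIs and 170 segment nuclei held 1, with medians of 1096 and 1104.5 UMIs. At 96 h the numbers were 39 and 69, with medians of 498 and 434 UMIs. At 28 d they were 22 and 128, with medians of 1214 and 1023.5 UMIs. In the GFP-positive library without injury the medians were 2535 and 1548.5 UMIs. A further 14, 4 and 13 nuclei at 64 h, 96 h and 28 d met both UMI conditions but held a Havcr1 or Vcam1 UMI.

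RNA released from broken cells puts stray UMIs into droplets, so the same genes were also counted in proximal tubule nuclei. Stray UMIs and expression in proximal tubule cells cannot be told apart there. Proximal tubule nuclei were those with at least 2 UMIs of proximal markers, and all nuclei were at 500 UMIs. At 64 h Lcn2 had a UMI in 3.0% of segment nuclei and in 0.265% of proximal tubule nuclei without a segment UMI. Sytl2 had one in 12.6% of segment nuclei and in 0.902% of such proximal tubule nuclei. Clu had one in 8.83% of segment and 2.71% of proximal tubule nuclei, and Cdh3 in 4.26% and 0.106%. In proximal tubule nuclei of the GFP-positive library without injury Clu had one in 0.499% and Sytl2 in 1.04%. The median full depth was 1045.5 UMIs in these segment nuclei and 1429 UMIs in these proximal tubule nuclei. At 96 h the gap was narrower for Lcn2, with 2.91% (0.95% to 6.65%) of segment nuclei and 1.26% (0.704% to 2.06%) of proximal tubule nuclei. The segment genes themselves were also found in proximal tubule nuclei, here taken whatever their other markers. Stray segment UMIs, thick limb nuclei with stray proximal UMIs and doublets cannot be told apart there. Slc12a1 had a UMI in 4.35%, 1.86% and 8.25% of proximal tubule nuclei at 64 h, 96 h and 28 d, and in 9.77% in the GFP-positive library without injury.

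The label was checked against markers outside the rule. Of 6 such thick limb markers, 6 were detected in injury-gene nuclei at 64 h and 96 h and 5 at 28 d, where Cldn16 was at 0. Their summed level was 511, 484 and 468 CPM in injury-gene nuclei at 64 h, 96 h and 28 d, against 1043, 1215 and 854 CPM in comparison nuclei. Of 5 distal convoluted tubule markers 4 were detected at each time, and Pvalb was at 0. Their level was 1137, 1622 and 780 CPM in injury-gene nuclei at the 3 times, against 745, 1019 and 879 CPM in comparison nuclei. Their intervals were apart at 64 h and overlapped at 96 h and 28 d. At 64 h 56.7% of injury-gene nuclei and 53.7% of the Slc12a1-chosen comparison nuclei held a UMI of these markers. A UMI of this list thus did not by itself mark a distal convoluted tubule nucleus. Trpm6 made up a small part of both sums at 64 h. Connecting tubule markers stood at 360, 911 and 2713 CPM in injury-gene nuclei at the 3 times, against 439, 412 and 1161 CPM in comparison nuclei. At 28 d Slc8a1 made up most of this level in both sets. A single nucleus held a large part of the Slc8a1 UMIs of the injury-gene set there, as given below. The 4 macula densa markers summed to 103, 0 and 120.0 CPM in injury-gene nuclei at the 3 times, against 205, 152 and 130.4 CPM in comparison nuclei. In injury-gene nuclei they were detected as Robo2 at 64 h and as Robo2 and Ptgs2 at 28 d, and Nos1 and Avpr1a were at 0 in each IRI library.

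Proximal tubule markers were present in both sets. They summed to 2343, 4354 and 8294 CPM in injury-gene nuclei at 64 h, 96 h and 28 d, and to 2797, 2321 and 8402 CPM in comparison nuclei. All 14 of these markers were detected in each injury-gene set. They had at least as many UMIs as thick limb and distal markers together in 31 of 171 nuclei at 64 h, 16 of 60 at 96 h and 25 of 52 at 28 d. Of the comparison nuclei 13 of 177, 5 of 93 and 68 of 215 did so. At 28 d the chosen nuclei thus went against the label in 25 of 52 cases, and 30 of 63 did so in the GFP-positive library without injury. Podocyte markers stood at 142 CPM in injury-gene nuclei and 0 CPM in comparison nuclei at 64 h. Their 33 UMIs came from 4 nuclei, with 16 of them in 1 nucleus. Of 4 parietal epithelium markers 4, 3 and 4 were detected in injury-gene nuclei at 64 h, 96 h and 28 d. They summed to 1244, 455 and 564 CPM in injury-gene nuclei, against 463, 521 and 278 CPM in comparison nuclei. Pax8, which is also a general nephron gene, held 243 of their 290 UMIs in injury-gene nuclei at 64 h, and the parietal marker Cldn1 had at most 1 UMI in injury-gene nuclei of each IRI library. Principal cell markers summed to 85.8, 199 and 60.0 CPM in injury-gene nuclei, against 48.7, 0 and 58.9 CPM in comparison nuclei. Intercalated cell markers summed to 120.2, 56.9 and 24.0 CPM in injury-gene nuclei, against 117, 108 and 37.8 CPM in comparison nuclei. The part of these markers in the results was not tested. Endothelial, fibroblast, macrophage, lymphocyte and neutrophil markers stayed at or below 114 CPM in injury-gene nuclei of each IRI library. Values without the podocyte-bearing and the proximal-rich nuclei are given with the processing alternatives.

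By segment gene, injury-gene nuclei fell into Slc12a1-bearing and Slc12a3-bearing kinds, in proportions that differed between times. Slc12a1 without Slc12a3 was found in 94 of 171 at 64 h, 20 of 60 at 96 h and 34 of 52 at 28 d. Slc12a3 without Slc12a1 was found in 49 of 171 (28.7%, 22.0% to 36.1%) at 64 h, 33 of 60 (55%, 41.6% to 67.9%) at 96 h and 6 of 52 (11.5%, 4.35% to 23.4%) at 28 d. Both genes were found in 7, 2 and 3 nuclei, and Umod or Egf alone in 21, 5 and 9. Of the last kind 12, 3 and 9 held at least as many proximal tubule as thick limb and distal marker UMIs. Egf was not among those markers. Of nuclei with Slc12a1 without Slc12a3 13, 3 and 11 did so, and of those with Slc12a3 without Slc12a1 6, 10 and 4. Segment nuclei with Slc12a3 and no Slc12a1 met the rule more often than those with Slc12a1 and no Slc12a3 at the early times. Of segment nuclei with Slc12a3 and no Slc12a1, 31.6% (24.4% to 39.6%, 49 of 155) met it at 64 h and 24.4% (17.5% to 32.6%, 33 of 135) at 96 h. Of those with Slc12a1 and no Slc12a3, 18.1% (14.9% to 21.7%, 94 of 520) met it at 64 h and 9.43% (5.86% to 14.2%, 20 of 212) at 96 h. The intervals of the 2 kinds did not overlap at either time. At 28 d the shares were 3.8% (1.41% to 8.08%) for Slc12a3 nuclei and 7.36% (5.15% to 10.1%) for Slc12a1 nuclei, which overlap.

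Genes outside the rule were then compared between injury-gene and comparison nuclei within each library. A gene was measured if both sets together held at least 20 UMIs, and folds are on the log2(CPM + 10) scale. At 64 h 4256 genes were measured, of which 4.23% were at least 2-fold higher and 4.04% at least 2-fold lower in injury-gene nuclei. At 96 h 516 were measured, with 7.17% higher and 12% lower. At 28 d 3286 were measured, with 3.1% higher and 7.67% lower. Of 2999 genes measured in at least 2 libraries, 21 (0.7%) were 2-fold higher in at least 2 of them with no library opposite, and 35 (1.17%) were 2-fold lower. These thresholds take no account of counting error, so the intervals of the named genes are given. The comparison nuclei all carry Slc12a1 while many injury-gene nuclei carry Slc12a3, so segment and injury genes cannot be told apart in this contrast. It is therefore repeated within each segment further below.

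Of the 21 shared higher genes 6 were in one of the gene lists, and of the 35 shared lower genes 4 were. The share of all 2999 genes that lay in a list was not taken. The lists were also chosen with earlier results of these data known, so these counts only describe. The distal convoluted and connecting tubule list had medians of -0.11, -0.49 and -0.03 at 64 h, 96 h and 28 d, with 1 gene 2-fold higher at each time. Slc8a1, which encodes the sodium-calcium exchanger NCX1, stood at 167, 711 and 2461 CPM in injury-gene nuclei at 64 h, 96 h and 28 d, against 39.0, 0 and 934 CPM in comparison nuclei. The ratio was 4.29 (1.98 to 10.6) at 64 h. It was 2.64 at 28 d, from 205 UMIs in injury-gene nuclei and 222 in comparison nuclei, and at least 10.9-fold higher at 96 h, where 3 counts of the comparison set give the bound. At 28 d 1 nucleus held 40.5% of the Slc8a1 UMIs of the set, and at 96 h 1 nucleus held 40%. Trpm6, the magnesium channel of this segment, stood at 163, 512 and 144 CPM in injury-gene nuclei, against 4.87, 21.7 and 37.8 CPM in comparison nuclei. Its UMIs numbered 38 against 1 at 64 h, 18 against 1 at 96 h and 12 against 9 at 28 d. Phactr1, a regulator of actin and phosphatase 1, stood at 442, 598 and 276 CPM in injury-gene nuclei, against 53.6, 0 and 101 CPM in comparison nuclei. Slc8a1, Trpm6, Phactr1 and Sdk1, which encodes a cell adhesion molecule, were also over 2-fold higher in nuclei that met the rule in the GFP-positive library without injury.

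Birc3 encodes an inhibitor of apoptosis and is a known NF-kB target. It stood at 124 and 180 CPM in injury-gene nuclei at 64 h and 28 d, against 29.2 and 29.4 CPM in comparison nuclei, with ratios of 4.26 (1.74 to 12.5) and 6.12 (2.35 to 17.7). In the GFP-positive library without injury its ratio was 0.508 (0.0979 to 1.67). Rtn4, which encodes the endoplasmic reticulum protein Nogo, stood at 987, 370 and 432 CPM in injury-gene nuclei at 64 h, 96 h and 28 d, against 317, 108 and 181 CPM in comparison nuclei. Its ratios were 3.12 (2.36 to 4.17), 3.41 (1.14 to 12.2) and 2.39 (1.49 to 3.81), against 1.08 (0.66 to 1.72) without injury.

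Psd3, a guanine nucleotide exchange factor for ARF6, stood at 695, 427 and 312 CPM in injury-gene nuclei, against 132, 108 and 164 CPM in comparison nuclei. Its ratio was 5.28 (3.5 to 8.26) at 64 h and 0.733 (0.348 to 1.4) without injury. Myof encodes the membrane repair protein myoferlin and stood at 270 and 180 CPM in injury-gene nuclei at 64 h and 28 d, against 97.4 and 50.5 CPM in comparison nuclei. Klf6, an immediate early transcription factor, had ratios of 2.12 (1.18 to 3.99) at 64 h and 3.29 (1.46 to 7.52) at 28 d. Birc3, Rtn4, Psd3, Myof and Klf6 were thus higher at 64 h and 28 d, and their ratios without injury had intervals that included 1.

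Spp1 encodes osteopontin, a secreted phosphoprotein of injured tubule. It stood at 3296, 1764 and 972 CPM in injury-gene nuclei at 64 h, 96 h and 28 d, against 1876, 824 and 273 CPM in comparison nuclei. The ratios were 1.76 (1.55 to 1.99), 2.14 (1.41 to 3.3) and 3.56 (2.53 to 5.01). Without injury nuclei that met the rule had 1836 CPM and comparison nuclei 244 CPM, a ratio of 7.53 (6.21 to 9.16), so the level in comparison nuclei was higher at 64 h than without injury. The remaining genes among the 15 highest were Gm13247, Kcnip4, Plce1, Spns2 and Sppl2a. Gm13247 is a predicted gene, and reads of such genes may be shared with near copies. It had ratios of 12.6 (4.64 to 47.6), 12.5 (3.01 to 110) and 3.67 (1.72 to 7.97) at the 3 times, against 1.16 (0.457 to 2.61) without injury. Kcnip4, a potassium channel partner, reached 720 CPM in injury-gene nuclei against 101 CPM in comparison nuclei at 28 d, but 48.3% of its UMIs there lay in 1 nucleus.

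**Figure D3:**
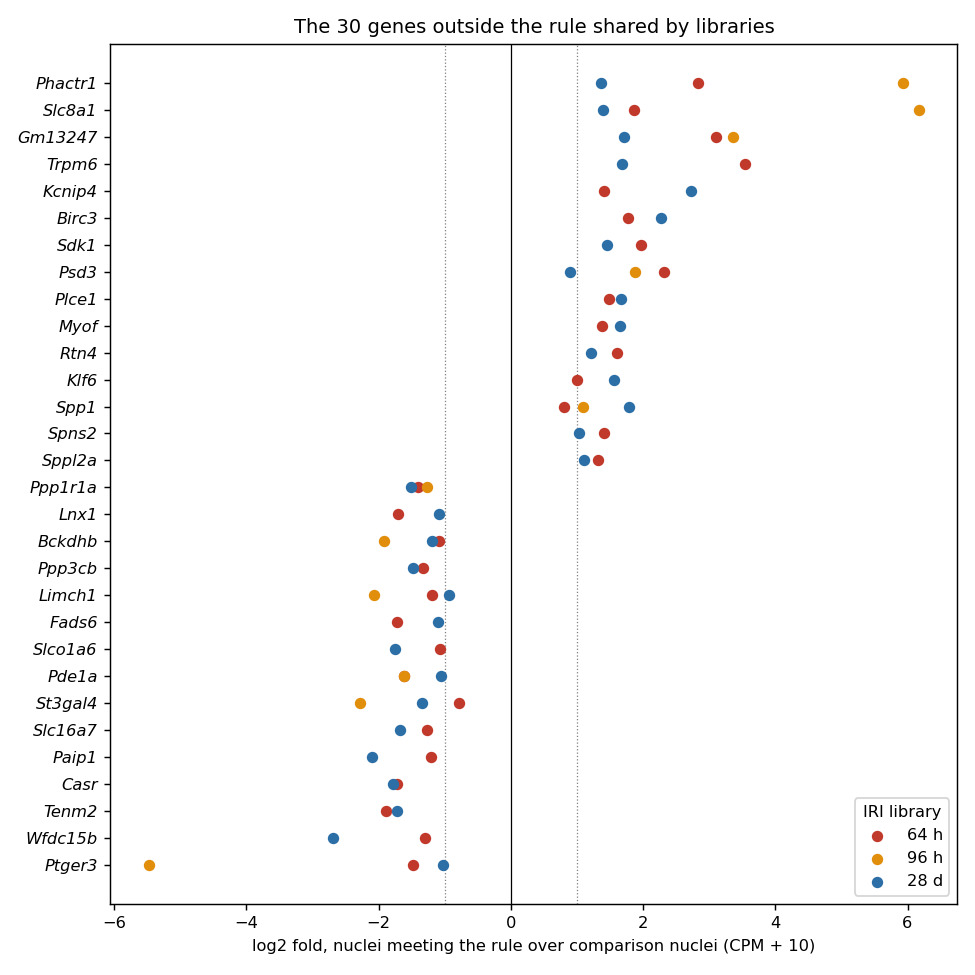
Log2 fold of injury-gene over comparison nuclei (x axis, on CPM + 10) for the 15 highest and 15 lowest shared genes outside the rule (rows), with 1 point for each library in which the gene was measured. Dotted lines mark 2-fold. Points beyond 5 in size, of Phactr1, Slc8a1 and Ptger3 at 96 h, have 0 UMIs in 1 set, and their place depends on the 10 CPM added.

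Among the shared lower genes, Ptger3 encodes the EP3 prostaglandin receptor of the thick limb. It stood at 202, 0 and 108 CPM in injury-gene nuclei at 64 h, 96 h and 28 d, against 580, 434 and 231 CPM in comparison nuclei. The ratios were 0.348 (0.243 to 0.491) at 64 h and 0.467 (0.203 to 0.953) at 28 d, and the 96 h ratio was at most 0.197 with 3 counts as the limit. Casr, the calcium-sensing receptor, stood at 107 and 96.0 CPM in injury-gene nuclei at 64 h and 28 d, against 375 and 353 CPM in comparison nuclei. Its ratios were 0.286 (0.174 to 0.454) and 0.272 (0.114 to 0.561). Without injury the ratios of Ptger3 and Casr were 0.999 (0.738 to 1.33) and 0.986 (0.61 to 1.54).

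Tenm2, a teneurin of the cell surface, stood at 112 and 144 CPM in injury-gene nuclei at 64 h and 28 d, against 439 and 496 CPM in comparison nuclei, and its ratio without injury was 1.05 (0.828 to 1.32). Wfdc15b, a secreted antiprotease-like protein, had ratios of 0.374 (0.199 to 0.675) at 64 h and 0.114 (0.0135 to 0.435) at 28 d. Slc16a7, the monocarboxylate transporter MCT2, had ratios of 0.397 (0.253 to 0.611) at 64 h and 0.293 (0.122 to 0.606) at 28 d. Bckdhb, a subunit of branched-chain ketoacid dehydrogenase, had 0.464 (0.342 to 0.624), 0.252 (0.0757 to 0.668) and 0.43 (0.27 to 0.657) at the 3 times. Pde1a, a calmodulin-dependent phosphodiesterase, had 0.321 (0.245 to 0.417), 0.317 (0.117 to 0.739) and 0.471 (0.264 to 0.791). The others were Paip1, St3gal4, Slco1a6, Fads6, Limch1, Ppp3cb, Lnx1 and Ppp1r1a.

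Among the 21 shared higher genes, 19 were measured in the GFP-positive library without injury and 5 of them were 2-fold higher there, where 1.66% of 6385 measured genes were. Among the 35 shared lower genes, 35 were measured there and 3 were 2-fold lower, where 3.54% of measured genes were. The contrast without injury shares no nuclei with those after injury.

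Thick limb salt transport genes had medians below 0 in each library against the Slc12a1 comparison nuclei. Of 16 genes outside the rule, 12 were measured at 64 h, 8 at 96 h and 11 at 28 d. At each time 0 were 2-fold higher and 2 were 2-fold lower, where 4.04%, 12% and 7.67% of all measured genes were lower. The median log2 fold was -0.51 at 64 h, -0.62 at 96 h and -0.70 at 28 d, against -0.04, 0.03 and -0.07 over all measured genes. At 64 h the median was 0.33 against wider comparison nuclei, which needed only 1 UMI of any segment gene, 0 injury gene UMIs and 0 UMIs of Havcr1 and Vcam1. Bsnd, the barttin subunit of chloride channels, had a ratio of 0.275 (0.0789 to 0.786) at 64 h. Fxyd2, a subunit of the sodium pump, had 1137, 1366 and 792 CPM in injury-gene nuclei, against 1710, 2559 and 1224 CPM in comparison nuclei. Its ratio was 0.647 (0.542 to 0.769) without injury too, so this difference was not limited to injured kidneys. Stk39 encodes SPAK, the kinase that activates NKCC2 and NCC, and had a ratio of 0.271 (0.0921 to 0.665) at 96 h. Of 14 claudin and calcium-magnesium genes 7 were measured at 64 h, with Trpm6 and Cnnm2 at least 2-fold higher and Casr and Cldn10 at least 2-fold lower. Cldn19, a tight junction protein of the thick limb, had a ratio of 0.545 (0.321 to 0.91) at 64 h.

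Of 21 distal transcription factors 15 were measured at 64 h, 1 was 2-fold higher and 3 were 2-fold lower, with a median of -0.42. The median was 0.50 with the wider comparison nuclei, and among nuclei with at least 2 Slc12a1 UMIs it was -0.25, with 1 of 13 higher and 1 lower. Pax8, a factor of nephron identity, stood at 1043 CPM in injury-gene nuclei against 409 CPM in comparison nuclei, a ratio of 2.55 (1.98 to 3.31). Pou3f3 and Esrrb, factors of thick limb and distal tubule, had ratios of 0.32 (0.123 to 0.747) and 0.402 (0.254 to 0.623). Ppargc1a, the coactivator of mitochondrial genes, had 0.454 (0.353 to 0.581) at 64 h and 0.456 (0.31 to 0.654) at 28 d. Of 22 mitochondrial energy genes 18 were measured at 64 h, with 0 higher, 2 lower and a median of -0.44. Of 18 glycolysis genes 11 were measured, with 0 higher, 2 lower and a median of -0.60. All genes measured at 64 h had a median of -0.04, with 4.23% at least 2-fold higher and 4.04% lower. Among nuclei with at least 2 Slc12a1 UMIs the mitochondrial median was -0.20, with 3 of 17 lower. The glycolysis median was -0.42 there, with 2 of 9 lower. All genes measured in those nuclei had a median of -0.08, with 5.92% lower. Ldha, the lactate dehydrogenase of glycolysis, had 6 UMIs in injury-gene nuclei against 18 in comparison nuclei. At 28 d the medians of the mitochondrial and glycolysis lists were 0.08 and 0.24. Of 16 measured mitochondrial genes 4 were 2-fold lower and 0 higher there, against 7.67% lower and 3.1% higher over all measured genes.

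Inflammatory, cytoskeletal and growth factor lists had medians above 0 at 64 h. Over all genes measured at 64 h the median was -0.04 and 4.23% were at least 2-fold higher. No share above 0 was taken over all genes. Of 23 NF-kB and cytokine genes 9 were measured, of which 9 were above 0, 3 were 2-fold higher and 0 were 2-fold lower, with a median of 0.64. Icam1, an adhesion receptor for leukocytes, stood at 90.1 CPM in injury-gene nuclei against 24.4 CPM in comparison nuclei, a ratio of 3.7 (1.36 to 12.6). Rela, the p65 subunit of NF-kB, had 16 UMIs in injury-gene nuclei against 5 in comparison nuclei, with a ratio of 2.82 (0.987 to 9.84) whose interval includes 1. Nfkbiz, an inducible regulator of NF-kB, had ratios of 2.07 (1.25 to 3.53), 4.37 (1.13 to 24.7) and 3.17 (1.16 to 8.82) at the 3 times, and 1.63 (0.758 to 3.27) without injury. Among 64 h nuclei with at least 2 Slc12a1 UMIs on both sides 4 genes of this list were measured, with 1 higher, 0 lower and a median of 0.70.

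Of 11 EGF receptor family genes and ligands 5 were measured at 64 h, with 3 at least 2-fold higher, 0 lower and a median of 1.03. This median was 0.38 with 3 injury gene UMIs required, 0.39 with 2 segment gene UMIs required, and 0.35 with 1 of 4 genes higher among nuclei with at least 2 Slc12a1 UMIs. Nrg1 encodes neuregulin 1, a ligand of the receptors ERBB3 and ERBB4. It stood at 1262, 598 and 600.1 CPM in injury-gene nuclei at 64 h, 96 h and 28 d, against 395, 369 and 547 CPM in comparison nuclei. Its ratios at those times were 3.2 (2.49 to 4.14), 1.62 (0.814 to 3.27) and 1.1 (0.776 to 1.53), and the ratio without injury was 1.12 (0.874 to 1.43). Errfi1, an inhibitor of the EGF receptor, had ratios of 2.12 (1.33 to 3.46) at 64 h and 0.86 (0.527 to 1.36) at 28 d. The receptor Egfr had ratios of 1.14 (0.756 to 1.71) at 64 h and 1.75 (1.14 to 2.66) at 28 d. Nrg1 and Errfi1 were thus higher at 64 h and had intervals that include 1 at 28 d. The change between times was not tested.

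Of 24 keratin and actin cytoskeleton genes 16 were measured at 64 h, with 5 at least 2-fold higher, 0 lower and a median of 0.57. Among nuclei with at least 2 Slc12a1 UMIs on both sides 13 were measured, with 0 higher, 1 lower and a median of 0.33. Actn1, which encodes the actin crosslinker alpha-actinin 1, had 27 UMIs in injury-gene nuclei against 5 in comparison nuclei, a ratio of 4.76 (1.81 to 15.8). Tmsb4x, the actin-binding thymosin beta 4, had a ratio of 5.99 (2.33 to 19.6) at 64 h, but 35.3% of its UMIs lay in 1 nucleus, and its ratio without injury was 7.48 (4.5 to 12.7). Anxa2, a membrane-binding annexin, had ratios of 1.49 (0.718 to 3.22) at 64 h and 5.71 (2.16 to 16.7) at 28 d.

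Of 20 adhesion genes 17 were measured at 64 h, with 4 higher, 0 lower and a median of 0.35. Itgav encodes the integrin alpha V chain and had ratios of 2.13 (1.59 to 2.88), 2.45 (1.26 to 4.93) and 1.55 (0.969 to 2.45) at the 3 times. Cdh6, a cadherin of the developing nephron, had a ratio of 1.06 (0.659 to 1.71) at 64 h and 4.28 (2.35 to 7.95) at 28 d, against 0.469 (0.207 to 0.936) without injury. Of 23 matrix genes 10 were measured at 64 h, with 2 higher, 0 lower, 10 above 0 and a median of 0.59. Over all genes measured at 64 h 4.23% were at least 2-fold higher and the median was -0.04. Cyr61, a matricellular target of YAP, had a ratio of 2.96 (1.48 to 6.44). At 28 d the medians of the adhesion, matrix and cytoskeleton lists were -0.11, -0.07 and -0.26, close to or below the median of all genes there.

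None of 14 cell cycle genes reached 20 UMIs over the injury-gene and comparison nuclei of any IRI library. Other nuclei of these libraries were not counted here. Six2, a nephron progenitor gene whose promoter also drives the transgene of these mice, had 19 UMIs in injury-gene nuclei against 17 in comparison nuclei at 28 d, a ratio of 3.19 (1.57 to 6.53).

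**Figure D4:**
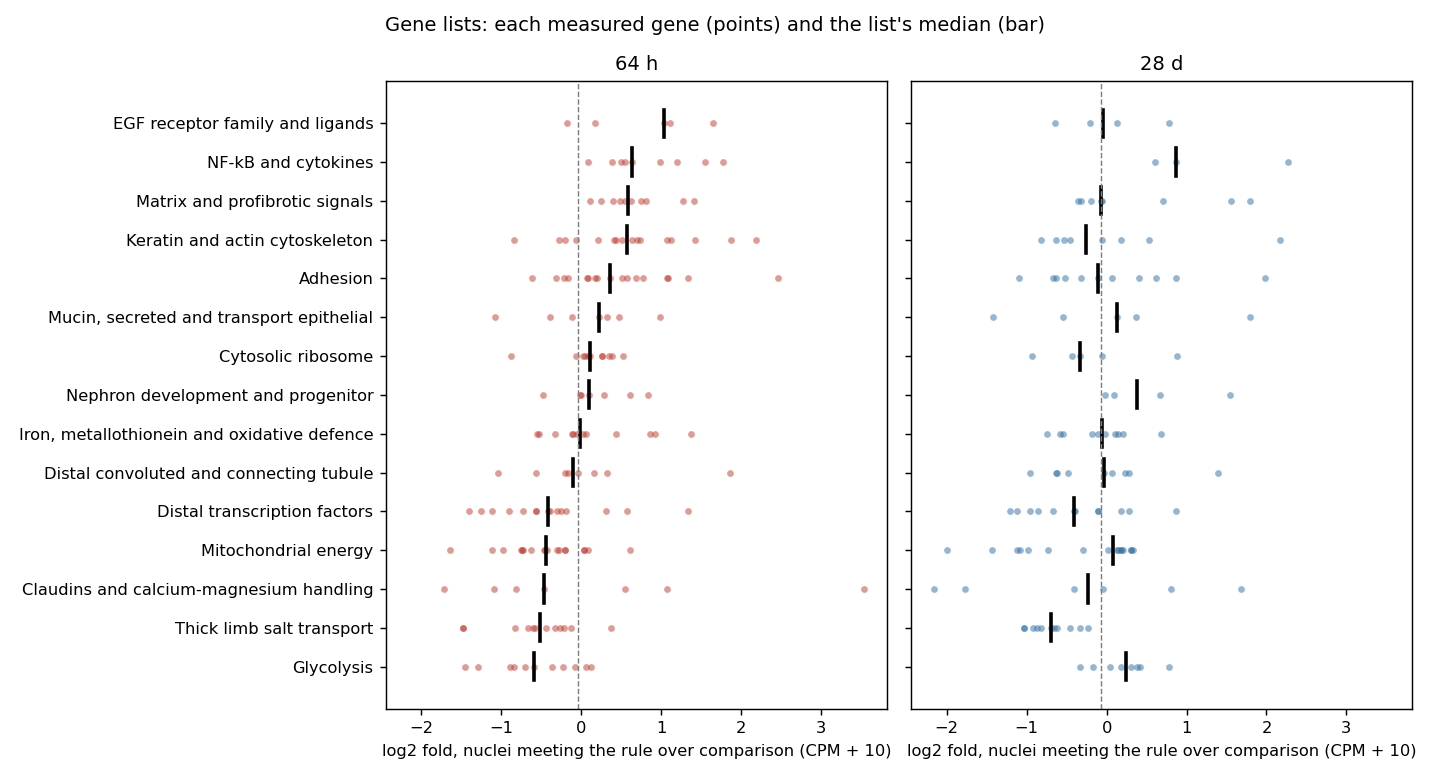
Log2 fold of injury-gene over comparison nuclei (x axis, on CPM + 10) for the measured members of gene lists (rows) at 64 h on the left and 28 d on the right. Points are genes, bars are list medians and the dashed line is the median of all measured genes. The EGF receptor family stood highest at 64 h with a median of 1.03 over 5 genes, which was 0.38 with 3 injury gene UMIs required, and thick limb salt transport stood lowest at 28 d with -0.70.

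Both sets were next limited to nuclei with at least 2 Slc12a1 UMIs, so that thick limb nuclei met thick limb nuclei. At 64 h this left 76 injury-gene and 177 comparison nuclei. Of 3158 measured genes 86 were at least 2-fold higher (2.72%) and 187 at least 2-fold lower (5.92%) in injury-gene nuclei. Genes named here and in the Slc12a3 contrast beyond the shared and list genes were chosen after their values were seen. Nrg1 stood at 1041 CPM in injury-gene thick limb nuclei against 395 CPM in comparison nuclei, a ratio of 2.64 (1.96 to 3.56). Pax8 had 2.34 (1.74 to 3.16), Itgb6 2.25 (1.63 to 3.11) and Birc3 5.09 (1.89 to 15.9). Sema3c, a secreted semaphorin, had 2.7 (1.64 to 4.5). Spp1 had 1.69 (1.46 to 1.97) and Itgav 1.88 (1.32 to 2.68). These genes therefore differed also where both sets carried Slc12a1.

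Ptger3 had a ratio of 0.545 (0.361 to 0.804), Casr 0.57 (0.341 to 0.918) and Ppargc1a 0.57 (0.418 to 0.768) in these nuclei. Each difference was smaller than that given above for all injury-gene nuclei at 64 h. These nuclei are part of that set and meet the same comparison nuclei, so the contrasts are not independent. Ptger3 and Casr were no longer shared lower in the Slc12a1-matched sets of all times. Of 12 measured salt transport genes 0 were 2-fold higher and 0 were 2-fold lower, with a median of -0.11 against -0.08 over all genes. Sfrp1, a secreted inhibitor of Wnt signalling, had 0 UMIs in injury-gene nuclei and 26 in comparison nuclei, a ratio of at most 0.22 with 3 counts as the limit. Slc8a1, Trpm6 and Phactr1 had at most 8 UMIs in injury-gene nuclei here and were not measured.

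Over the 3 times, 2479 genes were measured in at least 2 libraries in the Slc12a1-matched sets. Of these 9 were shared higher (0.363%) and 14 shared lower (0.565%). Only 2 of the 9 were among the 21 shared higher genes of the unmatched contrast, and 3 of the 14 among its 35 shared lower genes. At 64 h 12 of those 21 and 34 of those 35 were measured in the matched sets. The 9 higher ones were Zdhhc18, Rtn4, Psd3, Dysf, Ttc37, Col4a2, Dcdc2a, Rspry1 and Tsc22d1. Rtn4 stood at 762 and 499.6 CPM in injury-gene nuclei at 64 h and 28 d, against 317 and 181 CPM in comparison nuclei, with ratios of 2.41 (1.72 to 3.39) and 2.76 (1.59 to 4.69). Psd3 had ratios of 2.83 (1.69 to 4.79) and 2.38 (1.28 to 4.27). Dysf encodes dysferlin, which like myoferlin acts in membrane repair, and had 2.5 (1.24 to 5.13) and 2.72 (1.13 to 6.14). The lower ones included Tenm2, with ratios of 0.466 (0.278 to 0.75) and 0.481 (0.234 to 0.893), and Cox6c, a subunit of cytochrome c oxidase, with 0.459 (0.23 to 0.853) and 0.295 (0.0344 to 1.15). At 96 h only 13 injury-gene nuclei had 2 Slc12a1 UMIs, and at 28 d 30 did.

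Distal convoluted tubule nuclei were compared in the same way at 64 h, a contrast chosen after the data were seen. Of nuclei with at least 2 Slc12a3 UMIs, 46 were injury-gene nuclei and 43 had no injury gene UMI. Of 897 measured genes 89 were at least 2-fold higher (9.92%) and 72 at least 2-fold lower (8.03%) in injury-gene nuclei. Nrg1 stood at 1358 CPM in injury-gene nuclei against 212 CPM in the Slc12a3 nuclei without injury genes, a ratio of 6.4 (3.31 to 13.8). Rtn4 had 6.47 (3.35 to 14), Psd3 5.32 (2.81 to 11.1) and Pax8 3.55 (1.82 to 7.55). Spp1 had 3.3 (2.36 to 4.69), Itgav 3.12 (1.75 to 5.92) and Ctsd, the lysosomal protease cathepsin D, 4.23 (1.87 to 11.2). Nrg1, Rtn4, Psd3, Pax8, Spp1 and Itgav were thus higher in injury-gene nuclei of both segments at 64 h. Whether the ratios differ between segments was not tested.

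Of 5 measured genes of the distal convoluted and connecting tubule list 0 were 2-fold higher and 3 were 2-fold lower in these injury-gene nuclei, with a median of -1.52. Slc8a1 stood at 447 CPM in injury-gene nuclei, with 27 UMIs, against 6793 CPM in comparison nuclei, with 320 UMIs. The ratio was 0.0658 (0.0427 to 0.0976), whereas it was 4.29 between all injury-gene nuclei and the Slc12a1 comparison nuclei. Wnk1, a kinase that controls NCC, stood at 646 CPM in injury-gene nuclei against 4012 CPM in comparison nuclei, a ratio of 0.161 (0.111 to 0.228). Klhl3, the adaptor that targets WNK kinases for degradation, had 3 UMIs in injury-gene nuclei against 37 in comparison nuclei, a ratio of 0.0632 (0.0125 to 0.2). Wnk4 had 0.334 (0.135 to 0.761), Trpm6 0.698 (0.426 to 1.14) and Phactr1 0.69 (0.492 to 0.966). The direction of Slc8a1 and Phactr1 was thus opposite to that in the contrast of all injury-gene nuclei, and the interval of Trpm6 came to include 1. Both sets differ between these contrasts, since 46 of the 171 injury-gene nuclei enter here against 43 other comparison nuclei.

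**Figure D5:**
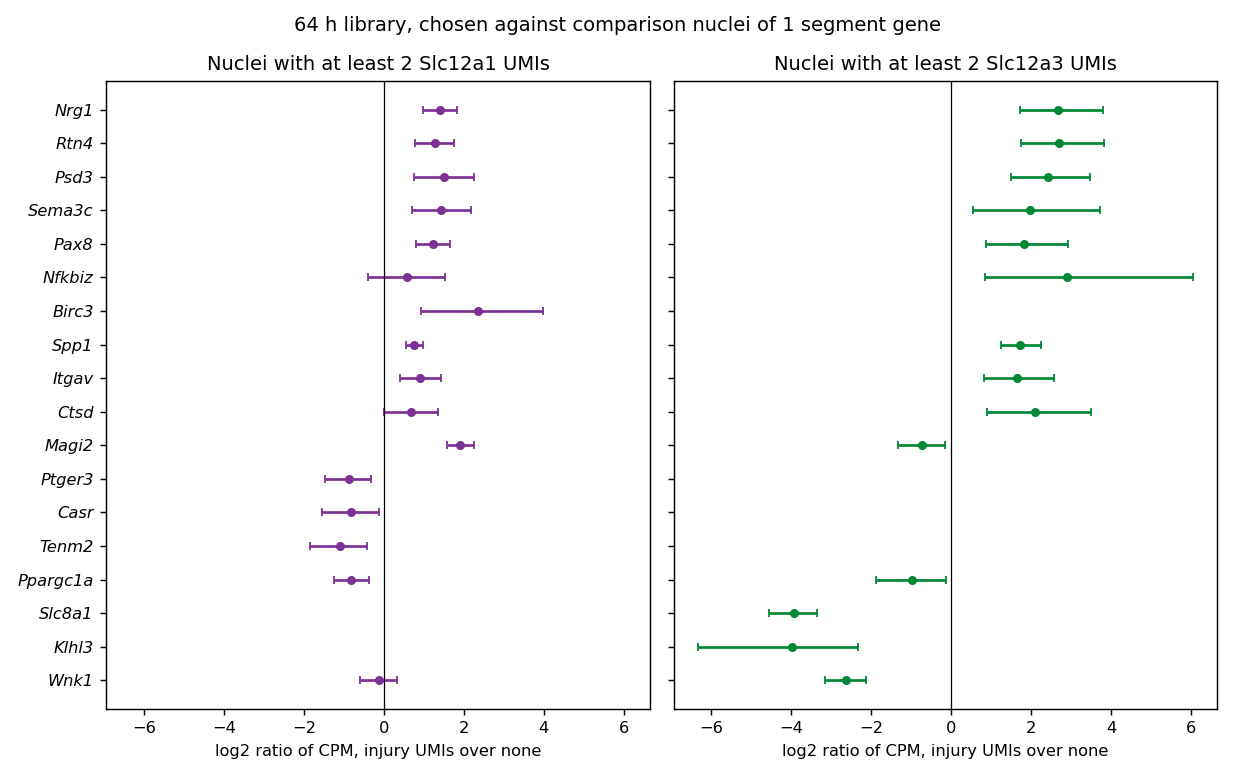
Log2 ratio of CPM at 64 h (x axis), injury-gene nuclei over nuclei of the same segment without injury gene UMIs, for nuclei with at least 2 Slc12a1 UMIs on the left and at least 2 Slc12a3 UMIs on the right. Points are ratios and bars are intervals for counting error, and genes with under 20 UMIs or with 0 UMIs in a set have no point. Nrg1, Rtn4, Psd3, Pax8, Spp1 and Itgav lay above 0 in both, while Slc8a1, Klhl3 and Wnk1 lay below 0 in the Slc12a3 nuclei.

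Between times the widest gaps in fold were those of Slc8a1, Phactr1 and Ptger3, each of which had 0 UMIs in 1 set at 96 h, so that the gap depends on the 10 CPM added. Magi2, a scaffold protein of cell junctions, came next. It stood at 1802, 569 and 384 CPM in injury-gene nuclei at 64 h, 96 h and 28 d, against 536, 369 and 1152 CPM in comparison nuclei. Its log2 fold was 1.73 at 64 h, 0.61 at 96 h and -1.56 at 28 d, and 41.2% of its 64 h UMIs came from 1 nucleus. RP23-306P12.2 had log2 folds of -0.70, 1.69 and 0.09 at the 3 times.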

How the data were processed

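Single-nucleus RNA was read in 5 droplet libraries, 1 per group. The deposited files hold raw UMI counts per gene and barcode. Per the submitters' processing notes, bcl2fastq 2.17, STAR 2.5.1b, Cell Ranger 2.1 and the mm10 build were used, and per the series' design text a pre-mRNA reference; the rule for calling barcodes was not given in the sources used here. Intronic reads count, so levels are nuclear RNA.

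Barcodes with at least 200 genes were kept. Counts were summed over the nuclei of a set and divided by their total. Ratios carry exact conditional intervals for Poisson counts and shares carry exact Clopper-Pearson intervals, both at 95% and for counting error only. Log2 folds add 10 CPM. A gene was measured with at least 20 UMIs over both sets of a library, and shared when at least 2-fold different in at least 2 libraries with none opposite. The 11 genes of the rule were left out of counts and medians. Intervals treat UMIs as independent and leave out differences between nuclei and animals. No test was run, since each group is 1 library. Doublets were not called; nuclei over 3 times the median depth were left out as an alternative.

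The members, gene lists and contrasts were chosen with earlier results of these data known. Named genes were the 15 highest and 15 lowest shared genes by mean log2 fold, up to 4 examples per list and the 5 genes with the widest gap between times; others are said to be chosen after their values were seen. Alternatives covered the rule, depth, comparison nuclei, scaling, pseudocount and UMI minimum. Computing was done in Python 3.11.15 with scipy 1.17.1 for intervals, pandas 2.3.3 and numpy 2.4.6 for tables and matplotlib 3.10.9 for plots, and in R 4.3.3 with edgeR 4.0.16 for TMM factors only. The scripts were tested on simulated data. Gene symbols are those of the deposited files, in which 56 symbols stand for more than 1 gene.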

Additional observations from a re-analysis of the deposited data

Results flagged for a closer look

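The rule was also met in the libraries without injury, which were not used to choose the nuclei. It was met by 2.19% of nuclei in the GFP-negative library (73 of 3338) and by 1.80% in the GFP-positive library (63 of 3508). Sytl2 alone brought in 35 of those 73 and 23 of those 63.

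Magi2 had folds of opposite sign at different times. Its log2 fold of injury-gene over comparison nuclei was 1.73 at 64 h and -1.56 at 28 d. The difference was not tested, with 1 library per time. At 64 h 41.2% of its UMIs in injury-gene nuclei came from 1 nucleus, and among nuclei with at least 2 Slc12a1 UMIs 80.1% did.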

How the results depend on the processing

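The number of injury-gene nuclei followed the thresholds. It was 101 at 64 h, 21 at 96 h and 30 at 28 d with 3 injury gene UMIs, and 56, 14 and 13 with the rule applied at 500 UMIs. At 96 h it was 18 with 400 detected genes and 36 with 2 segment gene UMIs. At 28 d it was 27 without nuclei rich in proximal tubule markers and 23 with a Lcn2 or Clu UMI required, the last chosen after seeing the data.

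The counts of shared genes, 21 higher and 35 lower, moved by over 1.5 times under these settings. They were 12 higher and 13 lower with 2 segment gene UMIs, 9 and 23 without proximal-rich nuclei, 80 and 257 with wider comparison nuclei, and 9 and 14 with 2 Slc12a1 UMIs. With wider comparison nuclei 15 of the 80 and 3 of the 257 were among the main 21 and 35. With 2 Slc12a1 UMIs 2 of the 9 and 3 of the 14 were. The counts were 11 and 15 with 50 CPM added, 50 and 87 with 10 UMIs to be measured, and 5 and 15 with 50 UMIs. Shared higher genes numbered 6 at 500 UMIs, and shared lower genes 65 with 3 injury gene UMIs and 58 with a Lcn2 or Clu UMI required. With Slc12a3 nuclei on both sides, chosen after seeing the data, they were 2 and 13. They stayed within 1.5 times, at 22 and 40, without the nuclei with 3 podocyte UMIs, also chosen after seeing the data.

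With Slc12a3 nuclei on both sides the mean log2 fold was -0.45 for Phactr1, -1.58 for Slc8a1, -1.39 for Trpm6 and 0.62 for St3gal4, and the mean log2 fold of Kcnip4 was -5.53, each opposite to its main value. With wider comparison nuclei it was -0.42 for Kcnip4, 0.12 for St3gal4, 0.13 for Fads6 and 0.11 for Ppp1r1a. The first setting changes both sets of nuclei by construction, and the second changes the comparison nuclei alone. The glycolysis median at 64 h was 0.37 with the rule at 500 UMIs, against -0.60, and the cause was not tested. Of 494 mean log2 folds of named genes 352 kept their direction with the gene still shared. Another 133 kept the direction with the gene no longer shared, at times with a larger mean, and 9 reversed. Of 525 list medians 494 moved by less than 1.5-fold and 31 by more, and 76 were on the other side of 0, 12 of them with wider comparison nuclei. There the 64 h median was 0.33 for thick limb salt transport, against -0.51, 0.83 for claudins and calcium-magnesium handling, against -0.46, and 0.50 for distal transcription factors, against -0.42. At 28 d the last was 0.31, against -0.40.

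No paired analysis was possible because each group is 1 library and no test was run. Depth limited 96 h most, where 516 genes were measured, against 4256 at 64 h.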

Other observations

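Egf and Umod, which the rule used as alternatives to Slc12a1 and Slc12a3, are given as levels only. Egf stood at 1150, 427 and 1380 CPM in injury-gene nuclei at 64 h, 96 h and 28 d, against 4751, 2017 and 4870 CPM in comparison nuclei. Without injury it stood at 2175 CPM in nuclei that met the rule and 4641 CPM in comparison nuclei of the GFP-positive library. Umod stood at 910 CPM in injury-gene nuclei and 2295 CPM in comparison nuclei at 64 h.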
